A study of Homo sapiens with 4 samples.

Results

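The histone genes of the array were taken as every probe whose gene name starts with HIST1H to HIST4H, H2AF, H1F or H3F3. That rule gave 106 probes for 79 genes, out of 30811 gene names on the array. Of these, 65 were replication-dependent genes, which carry a HIST name, and 14 were variant genes. Expression in 2 independent flasks of naive NB4 cells was compared with that in 2 flasks of an arsenic trioxide (ATO) resistant line. NB4 is an established acute promyelocytic leukemia line that carries the PML-RARA fusion. The resistant line, named NB4-VM-AsR1 in the labels, is a single clone derived from it and was kept off the drug before RNA was taken. Both lines were grown in RPMI with 10% FBS, and RNA of each flask was hybridised to its own 1-colour Agilent array.

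Histones are the proteins around which DNA is wound. Dividing cells make most of them in S phase from replication-dependent genes, which lie in clusters, mostly lack introns and give mRNA that ends in a stem-loop in place of a poly(A) tail. Variant histones are made outside S phase as well, from single genes with polyadenylated mRNA, and take the place of the common forms at particular sites in chromatin. The labels state that cDNA was primed with oligo-dT. The replication-dependent values are therefore those of whatever histone RNA such a primer could copy, and they need not follow the whole histone mRNA of the cells.

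Of the 79 genes, 74 had a probe that stood well above background in both flasks of a line and were tested, 60 of them replication-dependent and all 14 variants. Levels are given as log2 of the processed signal with 0 at the 75th percentile of the array, and differences as resistant minus naive. A gene stands for its tested probe with the highest mean over the 4 arrays, and it is called where limma's adjusted p is below 0.05 and the change at least 2-fold. From 27922 to 28244 of 41000 probes were well above background on an array. Of 7 promyelocytic markers, 6 were above background in naive flask 2 and 7 in each other flask. In each flask 3 of 3 epithelial, 3 of 4 B cell and 2 of 4 endothelial markers were above background. Of 5 erythroid markers 2 or 3 were, and of 4 fibroblast markers 0 or 1. Of 4 T cell markers, 4 were above background in each naive flask and 2 in each resistant flask. The part of that difference in the histone values was not tested.

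The histone H4 probes are shown here by where they lie in the transcript, a grouping made after their values were seen. The H4 genes encode the same core protein with codons and 3′ ends that differ between most, but not all, of them. The probes are 60 bases long and on 8 of the 12 tested genes they span the stop codon. Of those, the stretch up to the stop codon is printed, with the stop codon in capitals, for the 5 genes that were higher in both resistant flasks and for HIST1H4J and HIST1H4K, which were not.
HIST1H4A: tttggcggtTAA
HIST1H4B: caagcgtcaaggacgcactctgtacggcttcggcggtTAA
HIST1H4D: ttatggcttcggcggcTGA
HIST1H4E: cttcggcggcTAA
HIST1H4L: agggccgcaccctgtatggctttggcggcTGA
HIST1H4J: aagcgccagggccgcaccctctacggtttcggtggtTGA
HIST1H4K: tctacggtttcggtggtTGA

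The other H4 probes lie wholly before the stop codon, at bases 137 to 175 of the transcript, and are printed whole.
HIST1H4F: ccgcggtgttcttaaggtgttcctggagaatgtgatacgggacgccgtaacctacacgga
HIST1H4H: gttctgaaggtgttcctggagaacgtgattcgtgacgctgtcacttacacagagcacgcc
HIST1H4I: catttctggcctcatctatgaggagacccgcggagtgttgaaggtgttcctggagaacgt
HIST2H4B: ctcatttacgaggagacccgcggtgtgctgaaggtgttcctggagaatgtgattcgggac

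Across the 74 tested histone genes, 1 was called, HIST1H2AA, and it was lower in the resistant flasks. Over all 20964 genes tested, 5.47% were called in either direction and 2.98% lower. The histone differences had a median of -0.01, ran from -1.25 to 1.04 and had an SD of 0.42, against a median of -0.01 and an SD of 0.98 over all genes. At an unadjusted p below 0.05 there were 9 of 74 histone genes, or 12.2%, beside 19.5% of all genes. In 9 of the 74 genes (12.2%) both resistant flasks lay above both naive flasks, and in 25 (33.8%) both lay below. The shares over all genes were 25.2% and 28.1%. With 1 flask left out, a line kept a single flask and its spread was taken from the other line. No histone gene was therefore read as called there, and differences alone are given. In RNA of whole flasks, fewer cells in S phase and less histone RNA per cell cannot be told apart.

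**Figure D1:**
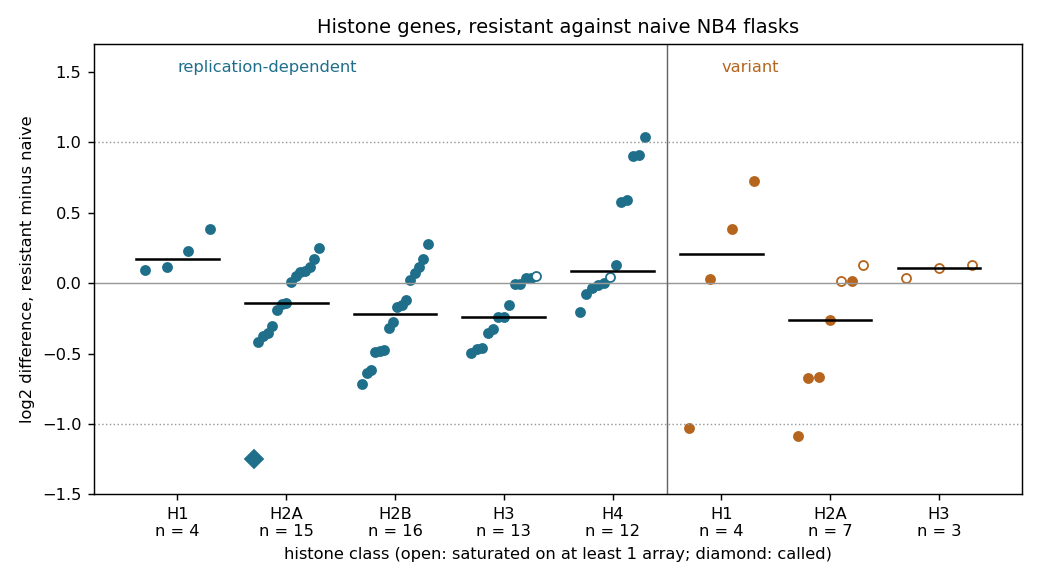
Log2 difference between resistant and naive flasks (y axis) of each tested histone gene, by class (x axis), with the class median as a bar. Dotted lines mark 2-fold, open circles are genes whose probe was saturated on at least 1 array, and the diamond is HIST1H2AA, the single called gene, at -1.25.

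HIST1H2AA encodes an H2A protein known from testis. Its probe lies at chr6:25726563-25726622 in hg19, at the edge of the large cluster. The log2 levels were -5.80 and -5.88 in the naive flasks and -7.01 and -7.17 in the resistant flasks. The lines did not overlap. The difference was -1.25 ± 0.22 (SE, n = 2 flasks per line), with an adjusted p of 0.043 by limma. On both resistant arrays the probe was not well above background. With these arrays set at the lowest level of any probe that was well above background, the gene was 1.55-fold lower. That fold has no spread and is not a sure minimum. It was tested because it stood well above background in the naive flasks alone. Without the filter on dim probes the adjusted p was 0.0811 by limma, and with the replicate number as a block it was 0.0715. Where all 4 arrays had to be above background the gene was not tested. With 1 flask left out the difference ran from -1.33 to -1.17, and with the normexp background correction it was 0.21. Of other histone genes known from testis, HIST1H1T and HIST1H2BA were not well above background on any array, while HIST3H3 and H1FNT were on all 4. HIST1H1A, HIST1H4G and HIST4H4 were not well above background either.

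Among the replication-dependent classes, the linker histone H1 genes, whose proteins bind the DNA between nucleosomes, had a median difference of 0.17 over 4 tested genes. The core classes had medians of -0.14 over 15 H2A genes, -0.22 over 16 H2B genes, -0.24 over 13 H3 genes and 0.09 over 12 H4 genes. All 4 H1 differences were above 0, and 10 of 13 H3 and 11 of 16 H2B differences were below 0. Over all 20964 genes 10733 differences were below 0. In these classes HIST1H2BD and HIST3H2BB stand by probes on the opposite strand, and HIST3H3 and HIST1H4C by saturated probes. None of the H1, H2B, H3 or H4 genes was called by limma, and 0, 3, 0 and 3 of them had an unadjusted p below 0.05. Over all genes the shares were 5.47% called and 19.5% with such a p. Adjusted by Benjamini-Hochberg, the methods' t-test called 0 of 28054 probes.

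Over all 60 replication-dependent genes the median level was -0.32 and -0.22 in the naive flasks and -0.48 and -0.28 in the resistant flasks. The 4 flasks overlapped. The median of the gene differences was -0.02, and it was -0.14 without naive flask 2 and -0.16 without resistant flask 2. The HIST1 cluster, at chr6:25726563-27861647 in hg19, had a median of -0.05 over 50 tested genes. Its block up to base 26285556 had a median of 0.03 over 30 genes and the block from base 27093288 one of -0.16 over 20 genes. The HIST2 cluster, at chr1:149400162-149859244, had a median of 0.00 over 7 genes, and the HIST3 cluster, at chr1:228612646-228646084, one of 0.05 over 3. The HIST3 median is the value of HIST3H3, whose probe was saturated on all 4 arrays, and so gives no fold. Of the other HIST3 genes, HIST3H2A differed by 0.09 and HIST3H2BB, by a probe on the opposite strand, by -0.15.

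Histone H4 split within its class. HIST1H4D had the highest difference among all histone genes. Its log2 levels were 0.47 and 0.90 in the naive flasks and 1.37 and 2.07 in the resistant flasks. The difference was 1.04 ± 0.33 (SE, n = 2 flasks per line), with an adjusted p of 0.181 by limma. The lines did not overlap, yet the gene did not pass the test.

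HIST1H4B stood at 2.73 and 3.14 in the naive flasks and at 3.58 and 4.12 in the resistant flasks, with a difference of 0.91 ± 0.30 (SE, n = 2) and an adjusted p of 0.191 in limma. HIST1H4L stood at 3.97 and 4.34 against 4.83 and 5.28, with a difference of 0.91 ± 0.28 (SE, n = 2) and an adjusted p of 0.173 in limma. Both genes showed the same order of the flasks, with naive flask 1 lowest and resistant flask 2 highest.

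HIST1H4A stood at -5.44 and -5.12 in the naive flasks and at -4.88 and -4.50 in the resistant flasks, a difference of 0.59 ± 0.26 (SE). HIST1H4E stood at -2.69 and -2.36 against -2.01 and -1.89, a difference of 0.58 ± 0.24 (SE). These values repeat the order of the flasks seen in HIST1H4D, HIST1H4B and HIST1H4L. The adjusted p-values of HIST1H4A and HIST1H4E were 0.309 and 0.282 in limma, and these 4 genes beside HIST1H4D were picked after their values were seen. Without naive flask 2 the differences of HIST1H4D, HIST1H4B and HIST1H4L were 1.25, 1.12 and 1.09. Without naive flask 1 the 3 differences were 0.83, 0.71 and 0.72. Without resistant flask 1 they were 1.38, 1.19 and 1.13 and without resistant flask 2 0.69, 0.64 and 0.68.

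The other unsaturated H4 genes differed less between the lines than between the naive flasks. HIST1H4J stood at -1.18 and -2.01 in the naive flasks and at -1.90 and -1.71 in the resistant flasks. HIST1H4K stood at -1.23 and -2.27 against -1.90 and -1.67. In both, the resistant flasks lay between the naive flasks, and the differences were -0.21 and -0.03. The stretch printed for HIST1H4K is contained in that of HIST1H4J, and whether the probes read the same RNA was not tested. The 4 genes whose probes lie before the stop codon, HIST1H4F, HIST1H4H, HIST1H4I and HIST2H4B, had differences of -0.07, 0.13, -0.02 and 0.00. In these 4 naive flask 2 was lower than naive flask 1, by a median difference of -0.45. In the 5 genes above it was higher, by a median of 0.37. HIST1H4C, the twelfth tested H4 gene, was saturated on all 4 arrays and gives no fold.

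**Figure D2:**
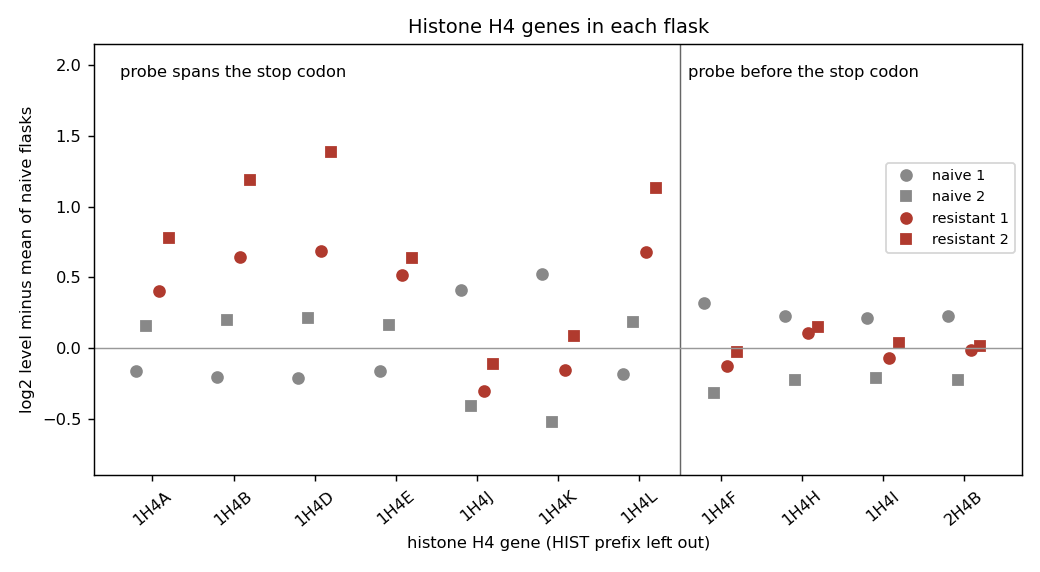
Log2 level of each unsaturated histone H4 gene in the 4 flasks (y axis, minus the mean of its naive flasks), with genes on the x axis grouped by whether the probe spans the stop codon. In HIST1H4A, HIST1H4B, HIST1H4D, HIST1H4E and HIST1H4L both resistant flasks lie above both naive flasks, and in the other 6 genes the lines overlap.

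Of the 7 unsaturated H4 probes that span the stop codon, 5 were higher in both resistant flasks, and of the 4 that lie before it, 0 were. Over all genes the share was 25.2%, and with 4 probes a count of 0 lies near it. The medians were 0.59 and -0.01. Those 5 genes were grouped by having both resistant flasks above both naive flasks, so leaving out a flask could not turn their sign. Under each alternative fitted per probe their differences had a median from 0.64 to 1.13, which gives no separate support. Position within the transcript also moved with the difference elsewhere on the array. Over 3539 other RefSeq transcripts with tested, unsaturated probes at least 300 bases apart, the downstream probe's difference exceeded that of the upstream probe by a median of 0.13 (quartiles -0.12 and 0.34). Between the naive flasks, flask 2 minus flask 1, the same median was 0.21, and between the resistant flasks 0.13. The part of this shift in the H4 and H2B values was not tested.

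The H2B probes were also read by position. Those that read the opposite strand or lie on another chromosome were left aside. All 9 remaining unsaturated probes that start before base 300 of the transcript were lower in the resistant flasks, with a median of -0.48 and a range from -0.71 to -0.17. In 8 of the 9 the lines did not overlap, beside 28.1% of all genes that were lower without overlap. With normexp 7 of the 9 were lower, with a median of -0.19, and under every other alternative fitted per probe all 9 were. Of the 8 probes that start at base 300 or later, 4 were higher and 4 lower, with a median of -0.03. The limit of base 300 was set after the values were seen, and the gap between the sets was not tested. In H2A and H3 the later probes had the lower medians. H2A probes before base 300 had a median of 0.10 and those after it -0.13, and H3 probes -0.01 and -0.24.

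**Figure D3:**
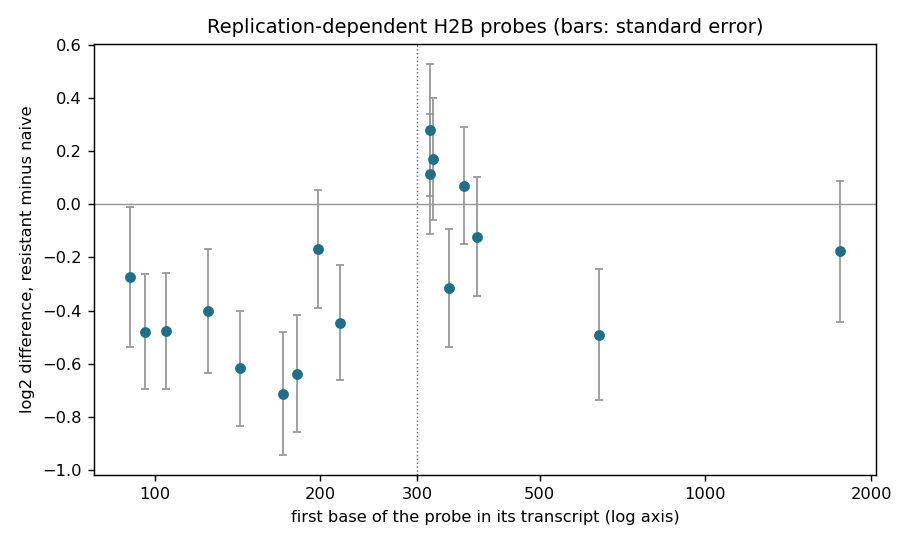
Log2 difference between resistant and naive flasks (y axis, with its standard error) of each tested probe of a replication-dependent H2B gene, against the first base of the probe in its transcript (x axis, log scale), without probes on the opposite strand or another chromosome. The 9 probes before base 300, left of the dotted line, lie from -0.71 to -0.17, and the 8 later ones from -0.49 to 0.28.

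HIST1H2BI had the lowest H2B value. It stood at -1.56 and -1.30 in the naive flasks and at -2.10 and -2.19 in the resistant flasks, a difference of -0.71 ± 0.23 (SE, n = 2) with an adjusted p of 0.188 by limma. HIST1H2BM stood at -1.18 and -1.03 against -1.71 and -1.78, and HIST2H2BE at -2.11 and -2.16 against -2.76 and -2.76. On these probes the 3 genes did not overlap between the lines and did not pass the test. Another tested probe of HIST2H2BE differed by -0.18, and there the lines overlapped. At the other end, HIST1H2BE stood at -0.14 and 0.26 in the naive flasks and at 0.29 and 0.40 in the resistant flasks, a difference of 0.28 ± 0.25 (SE). Its other probe, which the files place on chromosome 21 away from the cluster, differed by -0.38.

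Several H2B and H3 probes are close to one another in sequence. The HIST1H2BE and HIST1H2BF probes share 56 of 60 bases, and capitals mark where they differ.
HIST1H2BE: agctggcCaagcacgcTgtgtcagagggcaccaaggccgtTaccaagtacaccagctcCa
HIST1H2BF: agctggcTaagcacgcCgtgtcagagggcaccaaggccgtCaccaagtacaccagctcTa
They differed between the lines by 0.28 and 0.11. The probes of HIST1H2BN and HIST2H2BE share 54 of 56 overlapping bases and differed by -0.48 and -0.62. The probe of HIST3H3, an H3 gene known from testis, shares 52 of 60 bases with a probe of HIST2H3D.
HIST3H3: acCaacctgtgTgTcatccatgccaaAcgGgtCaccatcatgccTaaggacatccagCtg
HIST2H3D: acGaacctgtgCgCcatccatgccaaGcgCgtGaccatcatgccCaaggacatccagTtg
HIST3H3 was saturated on all 4 arrays and gives no fold, while HIST2H3D differed by -0.24.

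In histone H3, HIST1H3G had the lowest value. It stood at 2.25 and 1.98 in the naive flasks and at 1.77 and 1.47 in the resistant flasks, a difference of -0.49 ± 0.25 (SE, n = 2) with an adjusted p of 0.363 by limma. HIST2H3A followed with -0.47 and HIST1H3I with -0.46. In all 3 both resistant flasks lay below both naive flasks. That held for 6 of 13 H3 genes (46.2%), and 0 were higher without overlap, beside 28.1% and 25.2% of all genes. HIST1H3A, the highest unsaturated H3 gene, differed by 0.04.

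HIST2H2AA4, HIST2H3A and HIST2H4B each have a near-identical copy in the same cluster, which their probes may read as well. In histone H2A, the highest was HIST2H2AA4, at 0.71 and 1.03 in the naive flasks and 0.98 and 1.27 in the resistant flasks, a difference of 0.25 ± 0.25 (SE). HIST1H2AC had naive flasks 1.21 apart on the log2 scale, at -3.74 and -2.53, with the resistant flasks between them at -3.03 and -2.90. In the H1 class HIST1H1B was highest, at 0.20 and 0.26 against 0.54 and 0.68, a difference of 0.38 ± 0.22 (SE) with an adjusted p of 0.416 by limma. The lowest H1 gene was HIST1H1C, with 0.09.

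Of the 20 genes with more than 1 probe, 17 had at least 2 tested. Their probes differed in call in 0 genes and in the sign of the difference in 7, with a median range of 0.20 and a largest range of 0.66, in HIST1H2BE. The higher probes of HIST1H2BD and HIST3H2BB read the strand opposite to the gene and differed by 0.02 and -0.15, while the probes in the sense direction differed by -0.40 and -0.45.

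The variant genes are read from polyadenylated mRNA. None of the 14 was called by limma, beside 5.47% of all genes, and their median was 0.02. In 2 of them (14.3%) the unadjusted p was below 0.05, beside 19.5% of all genes. In 5 of them, H2AFV, H2AFZ, H3F3A, H3F3B and H3F3C, the highest probe was saturated on at least 1 array. Without saturated probes the median of the variant genes was -0.06. Values below are therefore those of the brightest unsaturated probe.

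Among the H2A variants, H2AFJ, which encodes H2A.J, had the lowest value. Its probe at chr12:14927815-14927874 in hg19 stood at 1.76 and 1.22 in the naive flasks and at 0.36 and 0.45 in the resistant flasks. The lines did not overlap, and the difference was -1.09 ± 0.27 (SE, n = 2) with an adjusted p of 0.109 by limma. The neighbouring tested probe of the gene gave -0.90 ± 0.25 (SE) with an adjusted p of 0.140 by limma. Without naive flask 2 the difference was -1.36, and without naive flask 1 it was -0.82. Without resistant flask 1 or 2 it was -1.04 or -1.13. With the replicate block the adjusted p was 0.137 by limma.

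The macroH2A genes, whose proteins carry a large extra domain and are found in silent chromatin, were lower as well without passing the test, except that H2AFY2 stood at a difference of 0.25 with the normexp background correction. H2AFY stood at 5.41 and 4.57 in the naive flasks and at 4.38 and 4.25 in the resistant flasks, a difference of -0.68 ± 0.34 (SE). H2AFY2 stood at -5.70 and -5.59 against -6.45 and -6.18, and was well above background on 1 of 2 resistant arrays, with a difference of -0.67 ± 0.23 (SE). The adjusted p-values were 0.360 and 0.216 in limma. Without naive flask 2 the difference of H2AFY was -1.10, and without naive flask 1 it was -0.26. Without resistant flask 1 or 2 it was -0.74 or -0.61.

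H2AFX, whose protein is phosphorylated at DNA breaks, stood at 5.36 and 5.22 in the naive flasks and at 4.94 and 5.12 in the resistant flasks, a difference of -0.26 ± 0.23 (SE). H2AFZ, which encodes the H2A.Z of promoters, stood at 5.43 and 4.92 against 5.20 and 5.35, and differed by 0.11 ± 0.27 (SE). Its relative H2AFV differed by -0.36 ± 0.26 (SE) on a dim probe, at -1.22 and -1.07 against -1.28 and -1.74. The bright probe of H2AFV, at 5.90 and 6.11 against 5.91 and 6.14, gave 0.01. It was saturated on 1 naive and 2 resistant arrays. H2AFB2 differed by 0.02, with the resistant flasks between the naive flasks. In H2AFZ and H2AFB2 the lines overlapped, and in H2AFX they did not.

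The H3 variants H3F3A and H3F3B encode the replacement histone H3.3, which is deposited outside replication. H3F3A stood at 5.43 and 4.92 in the naive flasks and at 5.14 and 5.09 in the resistant flasks, a difference of -0.06 ± 0.27 (SE). H3F3B stood at 4.63 and 4.53 against 4.60 and 4.46, a difference of -0.05 ± 0.22 (SE). Both genes overlapped between the lines on these probes. H3F3C had no unsaturated probe and gives no fold.

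Among the H1 variants, H1F0, the linker histone known from cells that have stopped dividing, had naive flasks 1.98 apart. It stood at -2.45 and -0.47 in the naive flasks and at -0.53 and -0.94 in the resistant flasks. The difference was 0.73 ± 0.66 (SE, n = 2), with an adjusted p of 0.600 by limma, and it was 1.72 without naive flask 2 and -0.26 without naive flask 1. H1FX stood at 0.34 and 1.24 against 1.33 and 1.02, a difference of 0.38 ± 0.36 (SE), with naive flask 1 apart in the same way. H1FOO, a linker histone known from oocytes, stood at -4.61 and -5.05 against -5.33 and -6.38, a difference of -1.03 ± 0.41 (SE) with an adjusted p of 0.268 by limma. For H1FOO the difference was 0.14 with the normexp background correction, -0.18 with normexp and bright local backgrounds reset and -0.50 without resistant flask 2. H1FNT, known from testis, differed by 0.03.

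**Figure D4:**
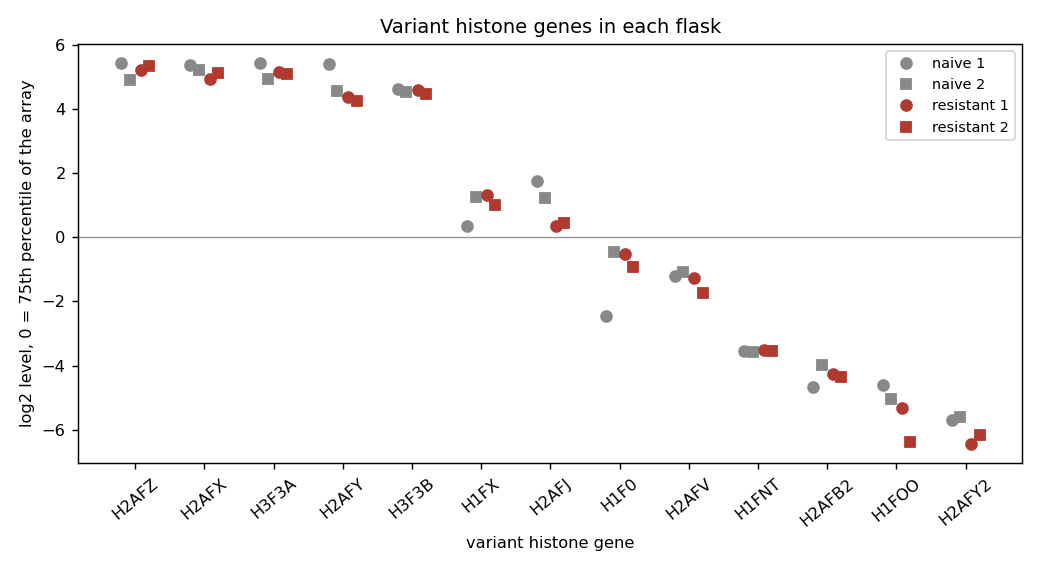
Log2 level (y axis, 0 at the 75th percentile of the array) of the variant histone genes in the 4 flasks, each by its brightest unsaturated probe. H1FOO, H2AFJ, H2AFV, H2AFX, H2AFY and H2AFY2 are lower in both resistant flasks, and H1FNT is higher in both by a difference of 0.03. Of all genes 28.1% were lower and 25.2% higher without overlap. In H1F0 naive flask 1 lies 1.98 below naive flask 2.

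The genes that supply histones and place them on DNA were read from gene lists. Of 21 tested genes of histone transcription and mRNA 3′ processing, limma called 0, beside 5.47% of all genes, and the median was 0.03. In 5 of them (23.8%) the unadjusted p was below 0.05, beside 19.5% of all genes. NPAT, the coactivator of the histone clusters, stood at -1.57 and -1.52 in the naive flasks and at -1.94 and -1.89 in the resistant flasks, a difference of -0.37 ± 0.22 (SE). Its lines did not overlap. SLBP, whose protein binds the histone stem-loop, differed by -0.08 and CASP8AP2 by 0.26.

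Of 34 tested histone chaperones and deposition factors, limma called 0, beside 5.47% of all genes, and the median was 0.11. In 3 of them (8.82%) the unadjusted p was below 0.05, beside 19.5% of all genes. CHAF1B, a subunit of the chromatin assembly factor CAF-1, stood at 2.22 and 1.84 in the naive flasks and at 2.53 and 2.70 in the resistant flasks, a difference of 0.58 ± 0.25 (SE) with an adjusted p of 0.298 by limma. Its partner CHAF1A differed by 0.48 and NASP, which holds soluble H3 and H4, by 0.57. In all 3 both resistant flasks lay above both naive flasks. That held for 12 of the 34 genes (35.3%), and 6 (17.6%) were lower without overlap, beside 25.2% and 28.1% of all genes. The 3 genes with an unadjusted p below 0.05, named after their values were seen, were UBN1, a partner of HIRA, at 0.59, IPO4, an importin, at -0.76 and HJURP, the chaperone of CENPA, at -0.72. IPO4 and HJURP were lower in both resistant flasks and UBN1 was higher. The chaperones ASF1A and ASF1B differed by -0.21 and 0.10, and the H3.3 chaperones HIRA, DAXX and ATRX by 0.33, 0.22 and 0.45. CENPA, the H3 variant of centromeres, which the rule leaves out, differed by -0.17 ± 0.35 (SE).

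Of 29 tested S phase genes, limma called 0, beside 5.47% of all genes, and the median was 0.01. In 1 of them (3.45%) the unadjusted p was below 0.05, beside 19.5% of all genes. The naive flasks stood apart in this list, with flask 2 below flask 1 by a median difference of -0.65, while the resistant flasks differed by a median of 0.08. The gene with a p below 0.05 was TK1, thymidine kinase, with a difference of 1.33 ± 0.42 (SE) and an adjusted p of 0.180 by limma, and it was chosen after its value was seen. Over all genes the median was -0.01.

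**Figure D5:**
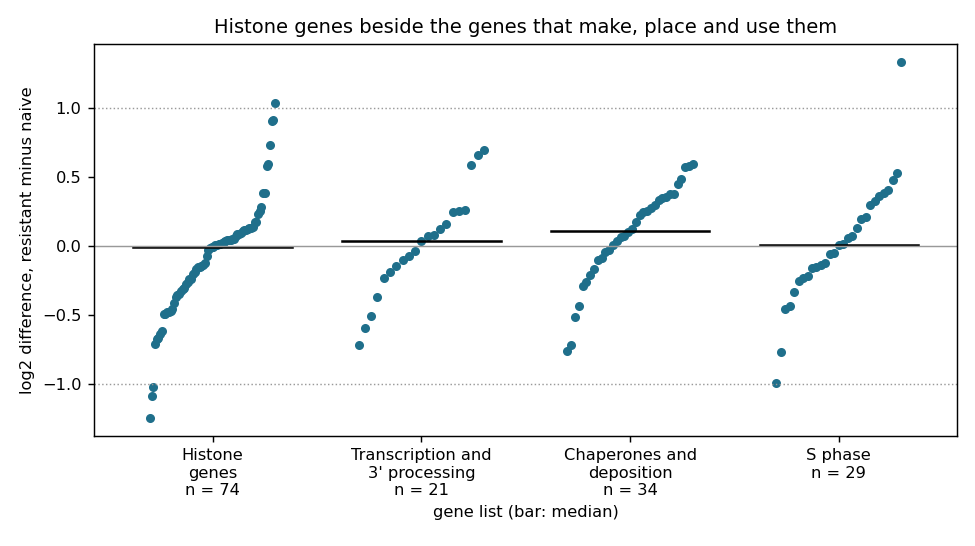
Log2 difference between resistant and naive flasks (y axis) of the 74 tested histone genes and of 3 lists of genes for histone mRNA, histone deposition and S phase (x axis), each point a gene and each bar a median. The medians lie from -0.01 to 0.11, and 1 gene of the S phase list, TK1, lies at 1.33.

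The promoters of the histone genes were read from RefSeq (GRCh38.p14), 300 bases each, for 60 replication-dependent and 12 variant genes. A CCAAT box, searched on both strands like all motifs here, was held by 85.0% of replication-dependent promoters, 75% of variant promoters and 34.6% of all 35116 promoters in the table. The TATA box letters TATAAA were held by 66.7%, 33.3% and 11.5%. The octamer ATTTGCAT, the motif read by the OCT1 factor at H2B genes, was held by 13 of 17 H2B promoters, 11 of 14 H2A promoters and 0 of 12 H4 promoters, beside 1.77% of all. CCAAT was held by 3 of 12 H4 promoters and by all 6 of H1, 14 of H2A, 17 of H2B and 11 of H3. The E2F letters TTTCGCGC were held by 10 of 60 replication-dependent promoters and TTTGGCGC by 0, beside 0.515% and 0.652% of all. No motif here contains another.

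The 250 bases before the start are shown for HIST1H2BI and HIST1H4D, the genes with the lowest H2B and the highest H4 difference, as the classes' promoters differ in these letters. They lie at chr6:26272681-26272930 on the plus strand and at chr6:26189113-26189362 on the minus strand of GRCh38.p14, and capitals mark CCAAT, ATTTGCAT and TATAAA on either strand.
HIST1H2BI: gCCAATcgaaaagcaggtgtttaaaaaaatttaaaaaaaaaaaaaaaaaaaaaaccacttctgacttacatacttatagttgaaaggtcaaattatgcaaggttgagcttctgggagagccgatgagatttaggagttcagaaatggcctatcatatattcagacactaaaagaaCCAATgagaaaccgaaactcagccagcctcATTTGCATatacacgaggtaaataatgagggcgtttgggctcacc
HIST1H4D: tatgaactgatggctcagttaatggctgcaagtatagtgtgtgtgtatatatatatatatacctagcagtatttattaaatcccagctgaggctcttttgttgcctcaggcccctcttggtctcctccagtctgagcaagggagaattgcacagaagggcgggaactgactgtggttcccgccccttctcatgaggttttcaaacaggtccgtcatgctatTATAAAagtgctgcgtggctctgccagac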

How the data were processed

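RNA of 2 flasks per line was labelled with Cy3 after oligo-dT priming and hybridised to Agilent 4x44k arrays, with 1 scan time for all 4 in the file headers. The authors extracted intensities with Feature Extraction 10.5.1.1 and deposited the processed signal, the mean spot signal and the local background as intensity columns with flags. Normalized log2 values, made by the authors with a shift to the 75th percentile, were deposited as well. Positions are hg19, per the file headers.

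The deposited intensities were put on the log2 scale in R 4.3.3, without outlier and control spots, with each array set to 0 at its 75th percentile (r of at least 0.9998 with the deposited log2 table). Resistant and naive flasks were set against each other with limma 3.58.1 (lmFit, eBayes), with Benjamini-Hochberg adjustment over all probes tested. These were the 28221 probes that stood well above background in both flasks of a line. The limma step alone was run on values simulated from its own fitted spread, which does not test the scaling, background or filter steps. Arrays have no read depth, and their number limits the precision. With 2 flasks against 2 an exact permutation test of a single value could not give a p below 0.333.

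The members, gene lists and motifs were chosen with earlier results of these data known. Genes were named by rule: called genes, the highest and lowest tested gene of each replication-dependent class, all variants, genes above background in 1 line only, genes with naive flasks over 1 apart, and 12 supply genes. HIST1H2BM, HIST2H2BE, HIST2H3A and HIST1H3I fall outside that rule and were named for their low differences, after the values were seen. Current symbols and promoters came from RefSeq by accession, for 101 of 106 probes. Alternatives were normexp, quantile, scale and median scaling, no or stricter dimness filters, leaving out saturated probes, eBayes with a trend, the deposited table, the methods' t-test, a block for the replicate number, the omission of each flask, and the mean over a gene's probes. Probe sequences of some 3′ ends are shown in part.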

Additional observations from a re-analysis of the deposited data

How the results depend on the processing

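The count of 1 called histone gene rested on HIST1H2AA. It was 1 with the deposited table, the methods' t-test unadjusted, the mean over a gene's probes and without saturated probes (added after seeing the data). It was 0, and the count of lower genes 0, with normexp, normexp with bright local backgrounds reset, quantile, scale and median scaling, no filter, probes above background on all 4 arrays, an intensity trend, the adjusted t-test and the replicate block, with 0 to 10 histone genes at an unadjusted p below 0.05. Leaving out 1 flask gave 0 to 7 called genes, 0 to 4 higher and 0 to 3 lower, a replication-dependent median from -0.16 to 0.0233 and a variant median from -0.14 to 0.12. Over all probes the count was 1487, and 0 with normexp, where 929 probes had an unadjusted p below 0.05. Same-numbered flasks had deviations correlated at 0.119 over 2 pairs and share only a number, and the block changed the call of HIST1H2AA (adjusted p 0.0715 by limma) and gave 1375 over all probes. No block for the slide was possible, since the files give 1 scan time.

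The alternatives gave 678 values for 40 named genes, among them fits with 1 flask left out, whose calls are not read. Direction and call held in 625, and 37 values of 19 genes turned sign. With normexp these were H1FOO 0.14, H2AFY2 0.25, H2AFZ -0.11, HIST1H2AA 0.21, HIST1H4K 0.0400 and DAXX -0.0174, and H2AFZ -0.0316 with backgrounds reset. With quantile normalization they were H3F3B 0.00869 and HIST1H4K 0.0159, with scale normalization H3F3A 0.15, H3F3B 0.15, HIST1H4K 0.0544 and SLBP 0.12, and with the median shift HIST1H4K 0.0113. The mean over probes gave H3F3A 0.0764, HIST1H2BE -0.0510 and ASF1A 0.00947. The median of all probes moved from -0.02 to 0.08 with scale normalization and to 0.13 with normexp. With 1 flask left out, the ranges that crossed 0 were ASF1A -0.67 to 0.25, ASF1B -0.24 to 0.44, CENPA -0.61 to 0.26, DAXX -0.00631 to 0.45, H1F0 -0.26 to 1.72, H1FX -0.0690 to 0.83, H2AFB2 -0.33 to 0.36, H2AFZ -0.15 to 0.36, H3F3A -0.32 to 0.19, H3F3B -0.11 to 0.0213, HIST1H1C -0.0474 to 0.23, HIST1H2AC -0.43 to 0.78, HIST1H4J -0.62 to 0.20, HIST1H4K -0.56 to 0.49 and SLBP -0.37 to 0.22. The cause was not tested. Where a line kept 1 flask, its spread was taken from the other line.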
